A study of Mus musculus with 4 samples.

Results

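The proteasome is the protease complex that degrades ubiquitin-tagged proteins in every cell. Its barrel-shaped core particle is built of alpha subunits (*Psma* genes) and beta subunits (*Psmb* genes), and the regulatory particle that caps it, unfolds substrates and feeds them in is built of ATPases (*Psmc* genes) and non-ATPase subunits (*Psmd* genes). Other caps activate the core (*Psme* genes), *Psmf1* inhibits it, and the *Psmg* genes encode chaperones that assemble it. In immune cells and after interferon, the catalytic subunits *Psmb5*, *Psmb6* and *Psmb7* are replaced by *Psmb8*, *Psmb9* and *Psmb10*, which gives the immunoproteasome that cuts peptides for presentation on MHC class I. The members were all protein-coding genes of the GENCODE vM21 annotation whose symbol starts with *Psm*, a letter from a to g, and a digit. The rule found 50 of 21951 protein-coding genes. Among them are *Psmc3ip*, which is named for binding an ATPase subunit but acts in meiotic recombination and is no subunit, and *Psme2b*, an intronless copy of *Psme2*.

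Chromatin accessibility of these genes was read from ATAC-seq of aortic nuclei of mice at P60 (60 days of age). Controls were *Col3a1*+/+, and VEDS mice, a model of vascular Ehlers-Danlos syndrome, were *Col3a1*G938D/+, heterozygous for a glycine substitution in type III collagen. Each genotype had 1 library from females and 1 from males, 4 in all, each pooled from 2 mice, and the annotations list no drug for any of them. Libraries were made with a single-cell ATAC kit but deposited as 1 peak list each, without cell types. Hence a promoter open in fewer cells and a promoter less open in each cell cannot be told apart.

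The lists differ in length. The control lists hold 21176 peaks in females and 1236 in males, with a median of 14 and 7 fragments at the summit of a peak. The VEDS lists hold 504 in females and 41444 in males, with a median of 6 and 22 fragments. In the control male list, 69.3% of the peaks lie over 50% in bases masked as repeats, against 3.90% in the control female list, 28.1% in the VEDS female list and 5.10% in the VEDS male list. Each genotype therefore has 1 long and 1 short list, from opposite sexes, and genotype, sex and list length cannot be told apart. With 2 libraries against 2, the smallest p that an exact two-sided permutation test can give is 0.333, so no test between genotypes was run. The tissue label was checked against marker genes. All 8 markers of vascular smooth muscle cells, which line the aortic media, had a promoter peak in both long lists, and none of the 9 immune markers, which include *Ptprc*, *Cd74* and *Spi1*, had one in any list. Of 6 endothelial markers, 0 had one in the control female list and 3 in the VEDS male list, and the counts were 2 and 2 of 6 for fibroblasts, 0 and 2 of 5 for adipocytes and 1 and 2 of 4 for striated muscle.

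The promoter sequences of the catalytic subunits and of 5 other members are shown because the results turn on where in them the peaks and sequence patterns lie. Each runs 5′ to 3′ from 150 bases before the reference transcription start site (TSS) to base 20 of the transcript, in the GRCm38 sequence that is also called mm10. Capitals mark matches to the patterns described under the promoter patterns, such as GGGCGG (GC box), CCGGAAG (ETS), TGACG (the CRE core) and TGACNNNGC (the core of the antioxidant response element, ARE). The constitutive catalytic genes *Psmb5* (chr14:54618003-54618172, minus strand), *Psmb6* (chr11:70525236-70525405, plus strand) and *Psmb7* (chr2:38644068-38644237, minus strand) come first, each followed by its immunoproteasome counterpart *Psmb8* (chr17:34197640-34197809, plus strand), *Psmb9* (chr17:34187745-34187914, minus strand) or *Psmb10* (chr8:105938425-105938594, minus strand).
Psmb5: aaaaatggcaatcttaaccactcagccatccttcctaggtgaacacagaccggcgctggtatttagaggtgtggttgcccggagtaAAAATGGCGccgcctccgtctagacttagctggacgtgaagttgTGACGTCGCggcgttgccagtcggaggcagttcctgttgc
Psmb8: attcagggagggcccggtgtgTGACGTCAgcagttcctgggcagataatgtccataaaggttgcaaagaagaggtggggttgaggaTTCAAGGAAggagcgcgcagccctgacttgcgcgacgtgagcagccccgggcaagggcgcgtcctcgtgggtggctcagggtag
Psmb6: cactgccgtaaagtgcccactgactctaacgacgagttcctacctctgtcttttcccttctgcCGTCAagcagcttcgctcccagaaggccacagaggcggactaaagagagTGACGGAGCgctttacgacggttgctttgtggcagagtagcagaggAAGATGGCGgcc
Psmb9: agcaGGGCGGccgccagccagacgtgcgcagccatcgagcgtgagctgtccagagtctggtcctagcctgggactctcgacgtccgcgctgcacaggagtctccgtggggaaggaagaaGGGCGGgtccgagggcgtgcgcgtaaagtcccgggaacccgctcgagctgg
Psmb7: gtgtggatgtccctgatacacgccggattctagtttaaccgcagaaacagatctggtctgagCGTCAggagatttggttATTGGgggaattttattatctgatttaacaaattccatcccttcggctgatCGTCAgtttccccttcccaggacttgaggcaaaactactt
Psmb10: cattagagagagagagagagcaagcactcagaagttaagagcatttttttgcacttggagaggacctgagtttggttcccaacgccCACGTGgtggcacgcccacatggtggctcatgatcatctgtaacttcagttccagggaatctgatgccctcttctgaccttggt
*Psmb10* stands apart in sequence, since 89.4% of this stretch is masked as repeat in the reference, against 0% to 19.4% in the other catalytic genes. The other 5 are 3 members with high-ranking peaks, *Psmc6* (chr14:45329638-45329807, plus strand), *Psmd5* (chr2:34870943-34871112, minus strand) and *Psma2* (chr13:14613090-14613259, plus strand), and 2 with the patterns discussed most, *Psmb2* (chr4:126677480-126677649, plus strand) and *Psmd2* (chr16:20651502-20651671, plus strand).
Psmc6: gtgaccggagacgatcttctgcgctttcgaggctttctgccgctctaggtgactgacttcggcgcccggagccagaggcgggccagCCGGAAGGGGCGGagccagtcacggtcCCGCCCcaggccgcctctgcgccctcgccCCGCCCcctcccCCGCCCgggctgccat
Psmd5: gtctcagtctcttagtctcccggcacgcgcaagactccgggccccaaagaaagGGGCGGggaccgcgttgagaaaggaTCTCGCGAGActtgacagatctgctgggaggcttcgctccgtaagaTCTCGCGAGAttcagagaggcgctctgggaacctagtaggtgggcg
Psma2: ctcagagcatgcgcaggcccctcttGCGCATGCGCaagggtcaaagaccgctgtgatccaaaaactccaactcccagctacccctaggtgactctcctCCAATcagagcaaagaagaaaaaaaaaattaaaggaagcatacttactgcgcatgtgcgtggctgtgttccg
Psmb2: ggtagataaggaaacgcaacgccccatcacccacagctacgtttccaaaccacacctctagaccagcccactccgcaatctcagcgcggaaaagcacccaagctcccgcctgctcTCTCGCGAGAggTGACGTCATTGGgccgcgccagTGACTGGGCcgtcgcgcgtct
Psmd2: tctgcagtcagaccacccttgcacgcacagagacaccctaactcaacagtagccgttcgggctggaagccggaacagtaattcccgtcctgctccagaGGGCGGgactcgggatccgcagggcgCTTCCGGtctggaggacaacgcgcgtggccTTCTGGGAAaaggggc

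Nearly all proteasome promoters carried a peak in the long lists. A promoter peak is a listed peak with any base within 1 kb of any annotated TSS of the gene. In the control female list 43 of 50 members had one (86%, 95% Wilson interval 73.8% to 93.0%), and 44.9% of all protein-coding genes did. In the VEDS male list it was 47 of 50 members (94%, interval 83.8% to 97.9%) against 55.5% of all protein-coding genes. In the short lists 2 of 50 members had one in each (4%, interval 1.10% to 13.5%), against 1.37% of all protein-coding genes in the control male list and 1.37% in the VEDS female list. The intervals cover counting error only.

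**Figure D1:**
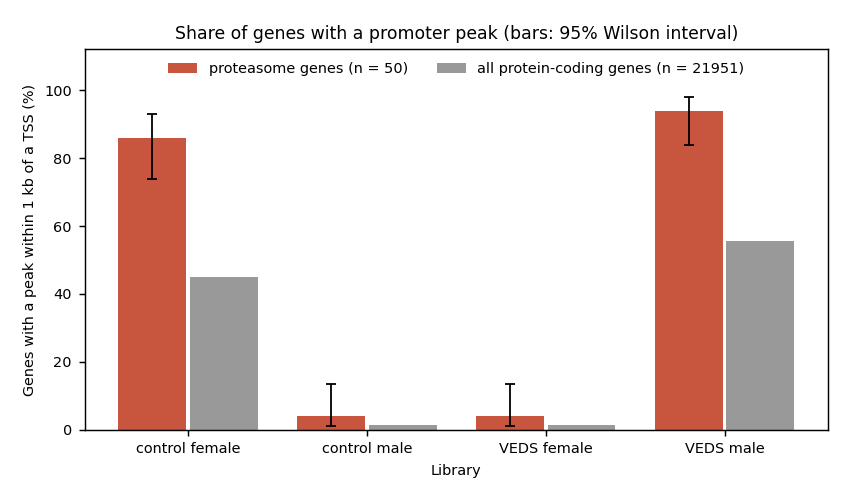
Share of genes with a listed peak within 1 kb of a TSS (y axis, percent) in each library (x axis), for the 50 proteasome genes with 95% Wilson intervals as error bars and for all 21951 protein-coding genes. The proteasome bars stand at 86% and 94% in the long lists and at 4% in both short lists, each above the grey bar of all genes.

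Part of this difference goes with promoter type. CpG-rich promoters, defined here as 300-base windows with an observed to expected CpG ratio of at least 0.6, belonged to 39 of 50 members (78%) and to 46.9% of all protein-coding genes with a window. Among genes with a CpG-rich promoter, 73.2% had a promoter peak in the control female list and 85.8% in the VEDS male list. Of the 39 members with one, 36 (92.3%, interval 79.7% to 97.3%) and 38 (97.4%, interval 86.8% to 99.5%) did. The members' share was thus still above that of other CpG-rich genes, by less than when all genes are taken, and other features that housekeeping genes share were not matched.

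The same 43 members had a promoter peak in both long lists, 4 had one in the VEDS male list alone, and none had one in the control female list alone. Of all protein-coding genes, 9848 had one in the control female list, 12184 in the VEDS male list and 9805 in both. Nearly all genes of the shorter list were thus in the longer one, among members and genes at large alike. The 4 members in the VEDS male list alone are *Psmb4* and the catalytic *Psmb7* of the beta ring, *Psmd6* of the lid of the regulatory particle, and *Psmd14*, the deubiquitinase of the lid. Their peaks held 28, 35, 23 and 47 fragments at the summit and ranked at percentiles 70.5, 82.9, 66.2 and 89.1 of the VEDS male list, where 100 is the peak of highest −log10 q and each list is ranked on its own. Since the VEDS male list is 41444 peaks long and the control female list 21176, an absent peak in the shorter list is not evidence of a closed promoter.

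No list held a promoter peak of *Psma8*, *Psmb11* or *Psme2b*. *Psma8* encodes the alpha subunit of the testis proteasome and *Psmb11* the beta subunit of the thymus cortex, the 2 members known to be confined to 1 tissue. The nearest peak to the *Psma8* start lay 22833 bp away in the control female list and 22910 bp in the VEDS male list. For *Psmb11* it was the *Psmb5* promoter peak, at 6977 and 6976 bp, since both genes lie side by side on chromosome 14. For *Psme2b* the nearest peak lay 73781 and 73822 bp away. *Psma8* was the only CpG-rich member without a peak in any list, with an observed to expected CpG ratio of 0.764, where *Psmb11* had 0.165 and *Psme2b* 0.325.

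**Figure D2:**
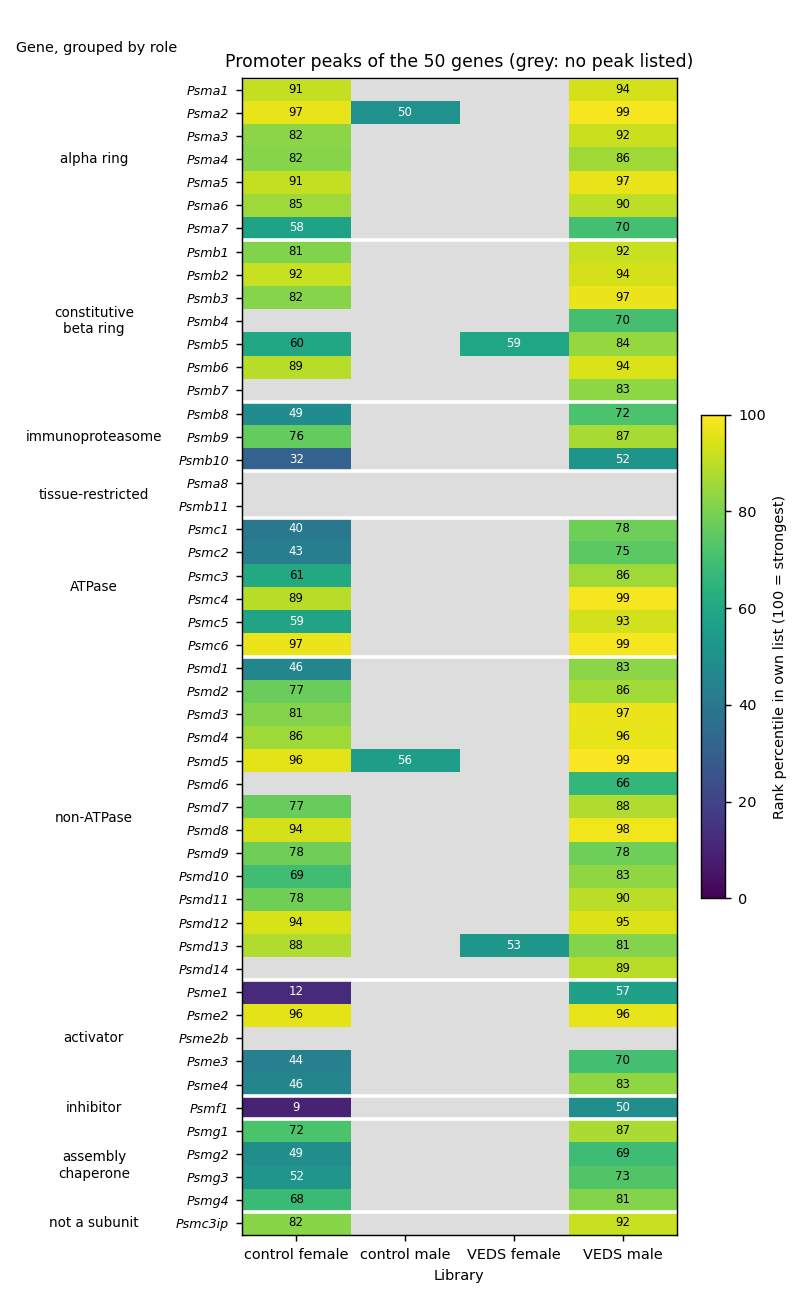
Rank percentile of the strongest promoter peak of each of the 50 genes (rows, grouped by role) in each library's own list (columns), with grey where no peak is listed. Both long lists are filled apart from the tissue-restricted genes, Psme2b and, in the control female list, 4 more genes, while each short list holds 2 genes.

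In the short lists, the control male peaks were those of *Psma2*, an alpha subunit, and *Psmd5*, an assembly chaperone of the regulatory particle base. The *Psma2* summit held 6 fragments and the *Psmd5* summit 7. They lay 41 and 71 bp (*Psma2*) and 155 and 151 bp (*Psmd5*) from the summits of the same genes in the control female and VEDS male lists. Both were also near the top of the long lists, at percentiles 96.5 and 98.7 (*Psma2*) and 96.0 and 99.3 (*Psmd5*). The VEDS female peaks were those of *Psmb5*, with 6 fragments and a summit 86 and 88 bp from those of the long lists, and *Psmd13*, with 5 fragments and a summit 201 and 219 bp from them. These ranked lower in the long lists, at percentiles 60.0 and 84.3 (*Psmb5*) and 87.9 and 81.4 (*Psmd13*). No member was in both short lists.

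In rank, the members' promoter peaks stood slightly above those of other genes. The median percentile of the 43 peaks was 78.2 in the control female list (quartiles 55.2 and 88.6, highest 97.2), and that of all 9800 protein-coding genes with a promoter peak and a reference TSS was 72.3 (quartiles 49.0 and 88.3). In the VEDS male list the 47 members had a median of 86.9 (quartiles 78.1 and 94.1, highest 99.3) and the 12128 genes one of 81.5 (quartiles 63.4 and 92.3). The 95% order-statistic intervals of the members' medians, 60.9 to 82.5 and 82.9 to 91.6, hold the first and not the second of these medians. Against genes with a CpG-rich promoter, whose medians were 74.8 and 84.2, both intervals hold the comparison value. Fold enrichment over the local background had medians of 10.1 and 12.9 for the members, 8.96 and 10.5 for all genes and 9.25 and 11.1 for genes with a CpG-rich promoter. The members' interval in the control female list, 8.30 to 11.3, holds both comparison values, and that in the VEDS male list, 11.7 to 13.7, lies above both.

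All 7 alpha ring genes *Psma1* to *Psma7*, whose products form the gate of the core, had a peak in both long lists, with median percentiles of 85.5 and 92.0. *Psma7* was the lowest of them, at 58.2 and 70.1. The summits of the group held 15 to 32 fragments in the control female list and 32 to 80 in the VEDS male list.

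Of the constitutive beta ring, 5 of 7 genes had a peak in the control female list and 7 of 7 in the VEDS male list, with median percentiles of 81.7 and 91.6. *Psmb2* was highest in the control female list (91.7, 25 fragments) and *Psmb3* in the VEDS male list (97.0, 98 fragments). *Psmb1* had 2 separate peaks in each list, 1 at the reference TSS and 1 upstream over an annotated alternative start, which also holds the start of *Tbp*. In the VEDS male list the upstream peak ranked higher, at 91.6 with its summit at −1561, against 81.3 for the peak with its summit at −48. In the control female list the order was the opposite, at 67.5 for the peak at −1562 and 80.9 for the peak at −50.

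All 6 ATPase genes of the unfolding ring had a peak in both long lists, and they spread widely in the control female list. *Psmc6* was the highest of all members there at 97.2, with 36 fragments, and reached 98.8 with 86 fragments in the VEDS male list. *Psmc4* stood at 89.3 and 98.7. *Psmc1* and *Psmc2* were among the 5 lowest members of the control female list, at 40.1 with 11 fragments and 42.6 with 12. They ranked at 78.1 and 74.6 in the VEDS male list.

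Of the 14 *Psmd* genes, 12 had a peak in the control female list and all 14 in the VEDS male list, with median percentiles of 79.9 and 88.7. *Psmd5*, *Psmd8* and *Psmd12* led them in the control female list, at 96.0, 93.7 and 93.9. In the VEDS male list *Psmd5* had the highest rank of all members, 296 of 41444 peaks, with 89 fragments at the summit and a fold enrichment of 21.3. *Psmd8* followed at 98.0 with 93 fragments. The lowest were *Psmd1* in the control female list (45.9) and *Psmd6* in the VEDS male list (66.2).

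The activator genes had the widest range of rank of any role in both long lists. *Psme1* and *Psme2* encode the alpha and beta subunits of 1 interferon-inducible activator ring and have their reference TSS 12727 bp apart on chromosome 14. *Psme2* ranked at 96.1 and 96.5 with 42 and 91 fragments, and *Psme1* at 12.1 and 57.1 with 8 and 25. The partners were thus far apart in rank in both long lists. *Psme3*, the nuclear activator, ranked at 43.5 and 70.0, and *Psme4*, the large single-chain activator, at 45.6 and 83.5. *Psmf1*, the inhibitor, was the lowest of all members in both long lists, at 9.45 with 6 fragments in the control female list and at rank 20741 of 41444 with 17 fragments in the VEDS male list.

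The 4 assembly chaperones *Psmg1* to *Psmg4* all had peaks in both long lists, with median percentiles of 60.2 and 77.0 and *Psmg2* the lowest, at 49.4 and 68.9. *Psmc3ip* ranked at 82.1 and 91.5, within the range of the subunits.

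**Figure D3:**
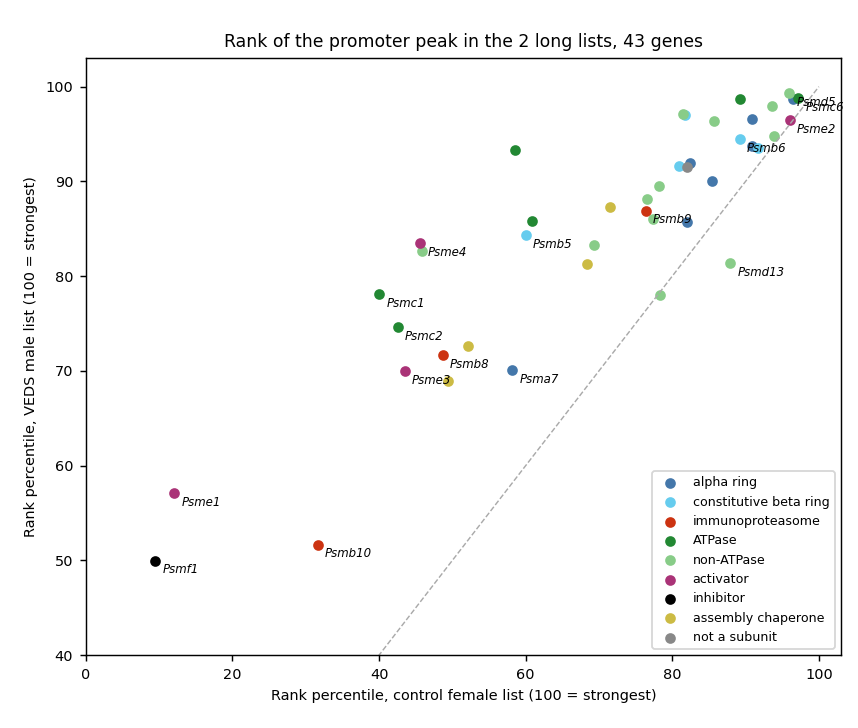
Rank percentile of the promoter peak in the control female list (x axis) and the VEDS male list (y axis, which starts at 40) for the 43 genes with a peak in both, coloured by role, with the line of equal percentiles dashed. Psmf1, Psme1 and Psmb10 lie at the low end of both lists and Psmc6, Psmd5 and Psme2 at the high end.

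The order of the genes was shared by the long lists. Over the 43 genes, Spearman's rho between the percentiles was 0.87, and over all 9805 protein-coding genes with a peak in both it was 0.85, so that the agreement is that of promoters in general. Genes are not independent replicates, and both lists share the genome's sequence and its mappability. The percentile was higher in the VEDS male list than in the control female list for 41 of the 43 genes (95.3%, the exceptions being *Psmd9* and *Psmd13*) and for 87.5% of all 9805.

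Proteasome summits lay close to the TSS. One reference TSS per gene was taken from its principal protein-coding transcript. With minus for upstream, the median summit position was −37 bp in the control female list (quartiles −82.5 and 6) and −27 bp in the VEDS male list (quartiles −48 and 21), against −52 and −47 bp for all protein-coding genes. The distance without sign had a median of 47 and 42 bp for the members, against 92.5 and 91 bp for all genes and 83 and 79 bp for genes with a CpG-rich promoter. The summit was within 150 bp of the reference TSS for 38 of 43 (88.4%) and 42 of 47 (89.4%) members, and for 64.8% and 64.0% of all genes with a promoter peak. Of those with a CpG-rich promoter it was 70.5% and 70.9%. The strongest peak covered the reference TSS itself in 39 of 43 and 43 of 47 members (90.7% and 91.5%), and in 69.3% and 73.8% of all genes. For genes with a CpG-rich promoter these shares were 76.3% and 82.3%, nearer to the members.

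By position in the reference transcript, 30 of 43 summits in the control female list (69.8%) and 33 of 47 in the VEDS male list (70.2%) were upstream of the start. The shares over all genes with a promoter peak were alike, at 70.7% and 69.7%. A further 12 and 13 were in an untranslated exon, and 1 in each list was in an intron. No summit was in coding sequence. The exon, intron and coding counts were not made over all genes. The intronic summit was that of *Psmb10* in both lists.

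The same gene had its summit at nearly the same base in both long lists. The median distance between the lists was 17 bp over the 43 genes, and 34 of them (79.1%) were within 50 bp. Over all 9805 genes the median was 32 bp, with 67.0% within 50 bp. *Psmb2*, *Psmb9*, *Psmc6* and *Psmd12* had identical summit bases. The largest distances were 1511 bp for *Psmb1*, where the stronger of its 2 peaks changed, 263 bp for *Psmg2* and 200 bp for *Psme3*. The peaks overlapped in 42 of 43 genes.

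**Figure D4:**
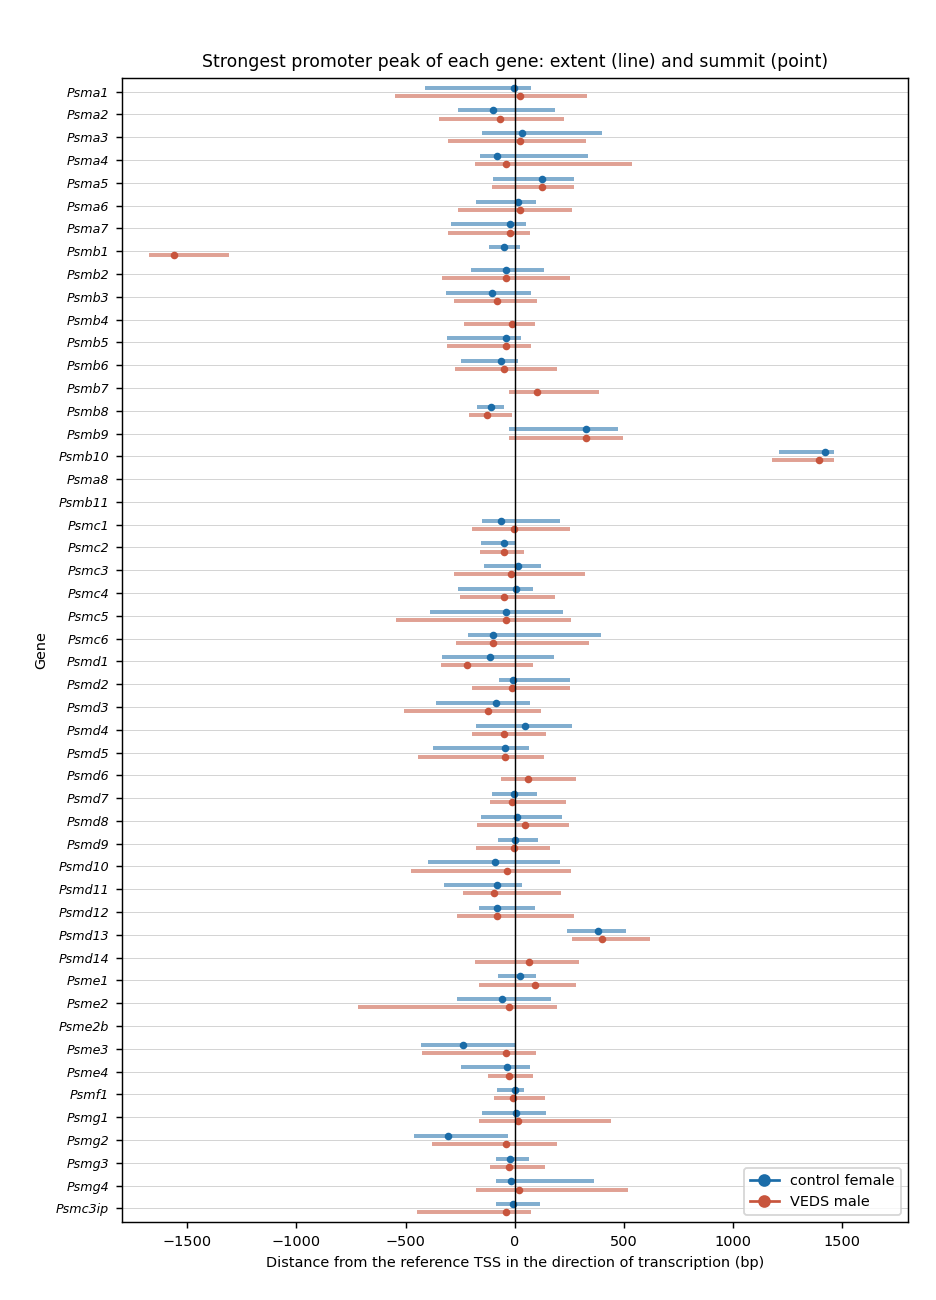
Extent (line) and summit (point) of the strongest promoter peak of each gene in both long lists, as the distance from the reference TSS in bp (x axis, positive downstream), with genes in rows by role. Most summits sit within 150 bp of the start, and Psmb1 (VEDS male), Psmb10, Psmb9 and Psmd13 stand apart.

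A few summits lay well away from the reference TSS. *Psmd13*, a lid subunit, had its summit at 379 and 397 bp, near a RefSeq start at 426 bp, and a second, weaker peak over the reference TSS in each list (percentiles 10.6 and 59.3). *Psmg2* in the control female list had its summit at −304 bp, on the side of its divergent neighbour *Cep76*. *Psme3* had its summit at −239 bp in the control female list and at −39 bp in the VEDS male list, with overlapping peaks. *Psma5* had it at 125 and 126 bp, inside the transcript. For *Psmg2*, *Psme3* and *Psma5* the reference TSS was also the gene's nearest GENCODE start to the summit.

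Width was close to that of promoter peaks at large. The median was 344 bp in the control female list (quartiles 258 and 439) against 302 bp for all genes, and 450 bp in the VEDS male list (quartiles 362 and 581) against 444 bp. The 95% interval of the members' median, 275 to 432 bp and 388 to 524 bp, holds the value of all genes in both lists. The widest peaks were those of *Psmc5* (611 bp), *Psmc6* (609 bp) and *Psmd10* (609 bp) in the control female list and of *Psme2* (911 bp), *Psma1* (880 bp) and *Psmc5* (805 bp) in the VEDS male list. The narrowest were those of *Psmb8* (124 bp), *Psmf1* (125 bp) and *Psmb1* (143 bp), and of *Psmb8* (197 bp), *Psmc2* (204 bp) and *Psme4* (208 bp). The peak was wider in the VEDS male list for 39 of the 43 genes. That share was not computed over all genes, whose median promoter peak was also wider there (444 against 302 bp). The median width of all peaks in the lists was 249 and 287 bp.

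Part of the members share their promoter peak with a neighbour. A protein-coding gene starts within 1 kb upstream on the opposite strand for 9 of 50 members (18%, interval 9.77% to 30.8%), against 9.10% of all protein-coding genes. Distances are from the member's reference TSS to the nearest annotated start of the partner upstream of it, which need not be the partner's reference TSS. The pairs are *Psmc2* and *Dnajc2* (32 bp), *Psmb9* and *Tap1* (38 bp), *Psma2* and *Mrpl32* (75 bp), *Psmc5* and *Ftsj3* (75 bp), *Psma7* and *Ss18l1* (76 bp), *Psmd13* and *Sirt3* (99 bp), *Psmd10* and *Atg4a* (218 bp), *Psmg2* and *Cep76* (263 bp) and *Psme2* and *Rnf31* (621 bp). In all 9, the member's strongest promoter peak was also within 1 kb of a start of the partner in both long lists, so that the 1-kb rule gives it to both genes. Beyond the promoters, 2 members in the control female list and 6 in the VEDS male list had any other peak within the gene, 2 and 7 peaks in all. This was not counted over all genes, so it cannot be read as a trait of the members.

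All 3 immunoproteasome genes had a promoter peak in both long lists by the 1-kb rule, and none had one in a short list. Their 3 genes are described by value, since so few allow no statement about the group. The one whose peak covered the reference TSS was *Psmb9*, which faces *Tap1*, a subunit of the peptide transporter that serves MHC class I. The *Psmb9* peak ranked at percentile 76.4 in the control female list (501 bp wide, 19 fragments) and 86.9 in the VEDS male list (522 bp, 49 fragments). In both lists the summit was the same base, 325 bp into the reference transcript of *Psmb9*, and it lay at −109 bp from the RefSeq start of *Psmb9*. An annotated *Tap1* start lies in the same peak, and the summit was at −114 bp from the reference TSS of *Tap1*. The *Tap1* start 38 bp upstream of the *Psmb9* reference TSS lies beyond the end of the peak in both lists.

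*Psmb8* had the narrowest peak of all members in both lists, at 124 bp with 11 fragments (percentile 48.7) and 197 bp with 31 fragments (percentile 71.7). Its summits were at −109 and −126 bp, and neither peak reached the reference TSS. Both covered another annotated protein-coding start 69 bp upstream of it. The full CRE match TGACGTCA in the printed *Psmb8* sequence starts at −129, and in the VEDS male list it lies at the summit, with its centre 1 bp away. A full CRE is in 2 member promoters (4%, interval 1.10% to 13.5%), the other being that of *Psmb2*. It is in 2.48% of all protein-coding promoters and in 3.94% of CpG-rich ones, so the members' share was near the latter.

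*Psmb10* had no peak at its reference TSS, which RefSeq places 52 bp downstream. The peak that the rule counted had its summit at 1419 bp in the control female list (percentile 31.6, 12 fragments) and 1394 bp in the VEDS male list (percentile 51.7, 26 fragments), in intron 4 of the reference transcript. Starts of noncoding transcripts of the gene are annotated at 1406, 1417 and 1419 bp. A weaker peak with its summit at 692 bp was listed in the VEDS male library (percentile 28.4, 19 fragments). The stretch before the reference TSS is the one masked as repeat, and whether reads could be placed there was not tested.

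Counting peaks that cover the reference TSS, 1 of 3 immunoproteasome genes (*Psmb9*) was left in each long list. Of the 3 constitutive counterparts, the peaks of *Psmb5* and *Psmb6* covered it in both long lists and that of *Psmb7* in the VEDS male list. *Psmb5* ranked at 60.0 and 84.3 (342 and 388 bp wide, summits at −42 and −40), and *Psmb6* at 89.2 and 94.5 (260 and 470 bp wide, summits at −65 and −48). *Psmb7*, not listed in the control female library, ranked at 82.9 in the VEDS male list, with 35 fragments, a width of 413 bp and its summit at 102 bp. Within each list, *Psmb5* therefore ranked above its counterpart *Psmb8* and *Psmb6* above *Psmb9*, by 11.3 and 12.7 percentile points for the first pair and 12.8 and 7.57 for the second, with 1 library behind each value. *Psmb7* ranked 31.3 points above *Psmb10* in the VEDS male list, where the *Psmb10* peak has its summit in an intron and does not cover the reference TSS. The 9 immune markers had no promoter peak in any list, and what part of the immunoproteasome peaks comes from which cells was not tested.

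The patterns searched in the promoters were 17 short letter strings, on both strands, in the window from 250 bases before to 50 after the reference TSS, for all 50 members and for 21866 protein-coding genes. A match is a description of letters and not of a bound site. The ETS pattern CCGGAAG had the largest difference from the background in percentage points, in 18 of 50 members (36%, interval 24.1% to 49.9%) against 11.2% of all promoters and 19.5% of CpG-rich ones. ETS factors such as GABP act at the starts of many housekeeping genes. The members with it are *Psma6*, *Psma8*, *Psmc1*, *Psmc2*, *Psmc3*, *Psmc3ip*, *Psmc6*, *Psmd2*, *Psmd4*, *Psmd6*, *Psmd7*, *Psmd11*, *Psmd12*, *Psme2b*, *Psme3*, *Psme4*, *Psmg1* and *Psmg3*. By role that is, in this window, 4 of 6 ATPases, 6 of 14 non-ATPase genes, 1 of 7 alpha ring genes and 0 of 7 constitutive beta ring genes. Of these 18, 13 have a match that starts within 60 bases of the TSS (72.2%), as do 64.5% of the 2442 protein-coding genes with the pattern. All 16 with a promoter peak in the VEDS male list have a match inside it, and the match nearest to the TSS lay at a median of 40.5 bp from the summit. *Psma8* and *Psme2b* show that the letters alone did not go with a peak. Among members with a peak, those with the pattern ranked at medians of 76.6 (n = 15) and 86.6 (n = 16) in the long lists and those without at 81.1 (n = 28) and 86.9 (n = 31), so the pattern did not go with a higher rank, while over all genes the medians were 76.7 and 86.0 with it and 71.3 and 80.3 without.

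YY1, a zinc finger protein often found just downstream of starts, was searched as AANATGGCG, which was in 6 of 50 members (12%) against 3.14% of all promoters and 5.73% of CpG-rich ones. These were *Psmb5*, *Psmb6*, *Psmc5*, *Psmd7*, *Psmd8* and *Psmd11*, and in all 6 a match lay inside the VEDS male peak. As a ratio to either comparison group, the members' share was larger for YY1 than for ETS. The YY1 share rests on 6 genes, and its interval, 5.62% to 23.8%, holds the share of CpG-rich promoters. The interval for ETS, 24.1% to 49.9%, lies above both of its comparison values. The pattern GCGCANGCG of NRF1, nuclear respiratory factor 1, was in 7 members (14%), against 8.59% of all promoters and 16.5% of CpG-rich ones, and so was near the latter. *Psma2*, printed above, has it on both strands at −125 and −124. The GC box GGGCGG was in 30 members (60%), more than in all promoters (45.4%) and less than in CpG-rich ones (73.7%), and CCAAT was in 18 (36%) against 38.6% and 37.1%. The CRE core TGACG, which the full CRE and part of the ARE cores contain, was in 19 (38%) against 23.7% and 35.9%.

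**Figure D5:**
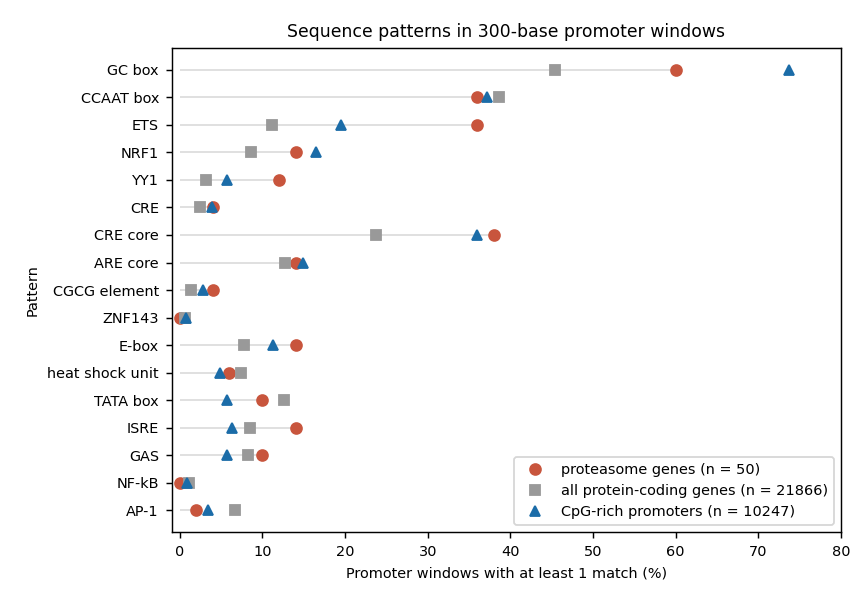
Percent of promoter windows with at least 1 match on either strand (x axis) for each of 17 letter patterns (y axis), for the 50 proteasome genes, all 21866 protein-coding genes with a window and the 10247 with a CpG-rich promoter. ETS lies at 36% in the proteasome genes against 11.2% and 19.5%, and every other pattern lies closer, in percentage points, to at least 1 comparison group.

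The ARE is of interest because NFE2L1, a factor unrelated to nuclear respiratory factor 1 although it is also called Nrf1, raises proteasome genes through it when the proteasome is impaired. In the promoter window its core TGACNNNGC was in 7 members (14%), against 12.8% of all promoters and 14.9% of CpG-rich ones, so that no excess was seen there. The share was higher in windows placed otherwise. Within 150 bases of the reference TSS on each side the core was in 12 of 50 members (24%), against 13.5% of all genes. In windows of 150 bases on each side of the summit it was in 14 of 43 members in the control female list (32.6%) and 13 of 47 in the VEDS male list (27.7%), against 15.9% and 15.7% of all genes with a promoter peak. The genes *Psma1*, *Psma3*, *Psmb2*, *Psmb5*, *Psmb6*, *Psmb10*, *Psmc4*, *Psmc6*, *Psmd7*, *Psmd9*, *Psmd12* and *Psme4* had it in both, 12 in all. The nearest match was 24 bp from the summit in *Psmb5*, 14 bp in *Psmb6* and 45 bp in *Psmb2* in the VEDS male list. The ETS pattern kept its share around the summits, at 16 of 43 (37.2%) and 20 of 47 (42.6%) against 21.7% and 20.3%. Some genes without it in the promoter window had it there. Among them were *Psmb7*, with a match 23 bp from the summit in the VEDS male list, and *Psmb10*, with its nearest match at −74 and −49 bp from the summits.

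Of the interferon-type patterns, GAAANNGAA, the core of the interferon-stimulated response element (ISRE), was in 7 members (14%). It was in 8.46% of all promoters and 6.26% of CpG-rich ones. In the promoter window, none of *Psmb8*, *Psmb9* and *Psmb10* had it. That window leaves out the summits of *Psmb9* (325 bp in both long lists) and *Psmb10* (1419 bp in control female, 1394 bp in VEDS male). Matches around the summits are not given by gene for this pattern, so whether those peaks hold an ISRE core is not shown. Within 150 bases of the reference TSS the ISRE core was in 18% of members against 7.40% of all genes. Around the summits it was in 16.3% against 5.45% in the control female list and 14.9% against 5.64% in the VEDS male list. TTCNNNGAA (GAS) was in 5 members (10%, against 8.22% of all promoters and 5.69% of CpG-rich ones), of which *Psmb8* is one. The NF-kB pattern GGGANTTTC was in no member and in 1.16% of all promoters, and ACTACAATT (ZNF143) in no member and in 0.563%. The remaining patterns are set against all promoters and then against CpG-rich ones. The E-box CACGTG was in 7 members (14%, against 7.71% and 11.2%) and the TATA box TATAAA in 5 (10%, against 12.6% and 5.69%). The heat shock unit GAANNTTC was in 3 (6%, against 7.38% and 4.88%). The CGCG element TCTCGCGA was in *Psmb2* and *Psmd5* (4%, against 1.39% and 2.75%) and AP-1 TGANTCA in *Psmd9* alone (2%, against 6.68% and 3.36%). In the printed *Psmd5* sequence the CGCG element appears in 2 blocks, at −72 and −26, each read on both strands. *Psmg2* had none of the 17 patterns, as had 10.4% of all promoters.

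Genes that work with the proteasome had promoter peaks at a like share. Of 24 listed, 23 were found in the annotation, and 19 of them (82.6%) had a promoter peak in the control female list and 23 in the VEDS male list, and the short lists held 1 (control) and 2 (VEDS). Their median percentiles in the long lists were 68.9 and 81.0, below the 72.3 and 81.5 of all genes, and ranged from 6.95 to 97.3 and from 20.3 to 99.2. *Vcp*, the segregase that hands substrates to the proteasome, ranked at 96.5 and 99.2, and *Rad23b*, a shuttle for ubiquitin-tagged proteins, at 97.3 and 96.3. At the low end, *Ecpas*, an adaptor that binds the proteasome, ranked at 6.95 and 52.1, and *Uba1*, the enzyme that activates ubiquitin, at 11.4 and 65.2. The *Uba1* values belong to different peaks, with summits at 44 bp (control female) and 4555 bp (VEDS male) from its reference TSS. *Nfe2l1* itself ranked at 96.9 and 97.3 and was in both short lists, with 11 and 5 fragments. *Pomp*, the maturation factor of the core, and *Sem1*, a small lid subunit, had a peak in the VEDS male list (75.8 and 85.0) and none in the control female list, as had *Nploc4* (20.3) and *Ubqln1* (65.8).

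Of 15 genes of antigen processing, which include *Psmb8*, *Psmb9*, *Psmb10*, *Psme1* and *Psme2*, 13 had a promoter peak in the control female list, 15 in the VEDS male list and none in the short lists. Their median percentiles were 57.8 and 79.0, below the 78.2 and 86.9 of the proteasome genes. *B2m*, the invariant chain of MHC class I, ranked at 88.2 and 84.4. *Nlrc5*, the transactivator of MHC class I genes, ranked at 6.63 and 14.7, with its summits at −38393 and −38452 bp, at another annotated start.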

How the data were processed

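ATAC-seq of aortic nuclei was deposited as 1 narrow-peak list per library. The authors aligned reads to mm10 (GRCm38, the build used here), removed duplicates by barcode, corrected Tn5 cut sites, called peaks with MACS2 and left out blacklisted regions. The aligner is not given in the sources used here. For each peak the deposited columns give positions, a score, the fold enrichment over local background (a ratio), and the −log10 of p and of q. These authors' values are relative to each library, so they were used within a list only.

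Transcription start sites came from GENCODE vM21. A promoter peak has a base within 1 kb of any TSS of the gene, and the one of highest −log10 q was described. The reference TSS is that of the principal protein-coding transcript, which 21866 of 21951 genes have. Fragments at summits were recovered from the deposited fold and p-value (99.3% to 99.9% of peaks), as tested on simulated data. Promoter letters came from the GRCm38 sequence, and RefSeq starts (GRCm38.p6) were matched by symbol for 42 of 50 members. No total depth was used, and no statistical test was run. Alternatives were other distances, starts, −log10 q thresholds and windows, equal list size, and leaving out each library. The members, lists and patterns were chosen with earlier results of these data known. The genes named are all members by role, with the extremes of rank, width and summit position and 2 lists of related genes, of which 1 item is not reported here. Scripts ran in Python 3.11.15, with pysam 0.24.0 for sequence, statsmodels 0.14.6 for intervals, and pandas 2.3.3.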

Additional observations from a re-analysis of the deposited data

Results flagged for a closer look

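The number of members with a promoter peak differed between genotypes in opposite directions in the sexes. VEDS minus control was -41 in the female libraries (2 against 43 of 50) and 45 in the male libraries (47 against 2). Over all protein-coding genes the share with a promoter peak moved the same way. It was 1.37% (VEDS) against 44.9% (control) in females and 55.5% against 1.37% in males, so the direction is not particular to the members. With 1 library for each genotype and sex the difference was not tested. The lengths of the lists move with it, at 504 peaks (VEDS) against 21176 (control) in females and 41444 against 1236 in males, and their part in the result was not tested.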

How the results depend on the processing

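Peaks lost with a stricter threshold or a shorter list set the limits. At equal list size (the top 504 by −log10 q), both control lists had 0 members with a promoter peak and the VEDS male list 2. At a −log10 q of at least 5 or of at least 10, the control male and VEDS female lists had 0. Under the other alternatives the long lists kept 32 to 43 members (control female, lowest at a −log10 q of at least 10) and 46 to 47 (VEDS male). For these alternatives no share over all protein-coding genes is given. The counts therefore do not show whether the members' share stays above that of genes at large. Merged by genotype, leaving out each library in turn gave 2 to 43 for control and 2 to 47 for VEDS, the low values being those without the long list. For the immunoproteasome genes, the control female count fell from 3 to 1 at a −log10 q of at least 10, and counting peaks over the reference TSS, an alternative chosen after seeing the data, it was 1 in the control female list and 1 in the VEDS male list. Of the other planned values, the median summit position, width and rank, the share with the ETS pattern and the summit distance stayed within their 95% intervals under every alternative run. Among the other patterns the share moved beyond its interval for the ARE core around the summits (32.6% and 27.7%), the heat shock unit within 150 bases of the TSS (2%) and the TATA box around the VEDS male summits (4.26%). No paired test was run, and VEDS minus control within each sex is given above as values.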

Other observations

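The annotation also holds 4 pseudogenes named after these genes, with symbols that carry the suffix -ps. None of the 4 had a listed peak within 1 kb in any library.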
